A study of Mus musculus with 199 samples.

Results

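The regions described here were the 40 kb windows of 7 imprinted gene domains of the mouse genome, measured by multiplex genome architecture mapping (GAM) in embryonic stem cells. Windows were chosen by position in the mm9 assembly. The H19-Igf2-Kcnq1 domain took the windows that start in a fixed stretch near the distal end of chromosome 7 (chr7:149000001-150520000, 38 windows). The other domains took the windows that start within 1 Mb of a named gene: Snrpn (chr7:66120001-68120000), Dlk1-Meg3 (chr12:109760001-111760000), Igf2r (chr17:11920001-13920000), Gnas (chr2:173160001-175160000), Mest (chr6:29720001-31720000) and Plagl1 (chr10:11840001-13840000), with 50 windows each. Together these were 338 of the 65983 windows of chromosomes 1 to 19 and X. Of them 4 had 50% or more undetermined bases, 1 in Snrpn, 2 in Igf2r and 1 in Mest, which left 334 for the tests. A list of 36 imprinted genes and their close neighbours was used as a guide to the domains. In the GENCODE M1 annotation 29 of them start inside their domain. Another 4 start outside the chosen windows (Cdkn1c, Phlda2, Ndn and Magel2), and Kcnq1ot1, Snurf and Hymai are not analysed here.

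The study cut frozen cells into 220 nm sections, isolated nuclear profiles (the slice of 1 nucleus in a section) by laser, pooled several profiles per cap, amplified their DNA and sequenced it. The sample titles give 4 profiles per cap (4NP), while the series title gives 3 on average. A window was called positive in a library when it had enough reads, so the call rate of a window measures how often it was caught in a slice and detected. A pair of windows that is close in the nucleus tends to be called in the same libraries, which is co-segregation. All 199 libraries were ones that had not passed the authors' quality control. Of these 11 were water controls, 2 held human genomic DNA, and all the rest were 4NP caps, over which every call rate below is taken.

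All 4NP libraries came from 46C-ES cells, a mouse embryonic stem cell line of 129/Ola background with a GFP reporter at the Sox1 gene. The cells were grown with LIF, which keeps them undifferentiated, and moved to serum-free medium a day before harvest. They are 1 line, and the calls do not tell the parental copies apart: a window counts as called when either copy is in a slice. The libraries came from 11 experiments on the protocol. The comparisons below use libraries stained with propidium iodide (PI, n = 21) against those stained and frozen (n = 21), crystal violet (n = 16) against unstained (n = 5), and eosin in ethanol (n = 8) against eosin in water (n = 8). A titration of proteinase K (1 ul of that labelled CSC, and 3, 4 and 8 ul of that labelled MDC, n = 7 each, with 1 ul, n = 2, and 2 ul, n = 1, of MDC) is described without a test. The 4NP libraries of the SYBR Gold test (15 stained, 3 unstained) and of the full collection (n = 34) enter only as whole experiments, while their water controls are described singly. The pooled call rates also hold 5 small experiments: reagent volumes of the whole-genome amplification (WGA; protocols a and c, n = 3 each), its number of PCR cycles (20, n = 2; 23, n = 1; 25, n = 2), freezing after incubation (n = 3) or none (n = 2), early (n = 1) or late freezing (n = 2), and a large (n = 1) or small kit (n = 2). An unstained library in each of the PI and eosin experiments is pooled too. Titles name the crystal violet experiment after cresyl violet but its stained libraries, like their staining protocol, after crystal violet, which is used here. Nothing in the labels says which libraries came from separate cultures, so p-values measure the spread between libraries.

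Imprinted genes are expressed from 1 parental copy, set by DNA methylation that differs between egg and sperm at control regions. They lie in clusters in which long noncoding RNAs, such as H19, Airn or Meg3, share the cluster with protein-coding genes of growth and metabolism. In the H19-Igf2 cluster an insulator bound by CTCF on the maternal copy keeps distal enhancers from the Igf2 promoter, so the folding of the region is part of its regulation. The Snrpn cluster, the counterpart of the human region of the Prader-Willi and Angelman syndromes, carries long arrays of near-identical small nucleolar RNA genes.

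Those arrays are shown first, since 6 of the 11 windows that hold them were never called by a 4NP library, and the others by up to 7. Of all usable windows 1.12% were never called. Of those with under 50% unique words, a measure described below, 22.6% were never called. GENCODE M1 places 137 SNORD115 genes in 8 windows of the Snrpn domain and 27 SNORD116 genes in 3 windows. Of the SNORD115 copies 97 lay in windows that no 4NP library called, and of the SNORD116 copies 15 did. The most frequent SNORD115 sequence, 79 bases long, occurred 33 times unchanged, and the next one differed from it at 1 base and occurred 23 times. The 130 copies of that length differed from the most frequent one at a median of 1 base and at most 10. The most frequent SNORD116 sequence, 94 bases long, occurred 18 times. The copies below were read from mm9, 5′ to 3′ on the minus strand, and capitals mark bases that differ from the most frequent copy of the family. The first is at chr7:66648931-66649009, the second at chr7:66745931-66746009, the third at chr7:66599443-66599521 and the fourth at chr7:66933879-66933972.
SNORD115 most frequent copy: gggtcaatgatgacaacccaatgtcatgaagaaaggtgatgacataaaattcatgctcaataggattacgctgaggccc
SNORD115 next most frequent copy: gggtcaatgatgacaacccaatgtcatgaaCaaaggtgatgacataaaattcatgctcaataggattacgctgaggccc
SNORD115 copy with most differences: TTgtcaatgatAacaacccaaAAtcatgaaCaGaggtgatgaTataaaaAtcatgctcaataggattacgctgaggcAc
SNORD116 most frequent copy: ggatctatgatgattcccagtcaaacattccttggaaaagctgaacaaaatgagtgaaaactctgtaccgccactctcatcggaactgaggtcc
The first and second of these lay in windows called in no 4NP library. The third, the copy with most differences among those of 79 bases, lay in a window called in 7 libraries at the edge of the array. The window of the fourth was called in 5.

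The annotated 5′ ends of the genes on which the domains are centred differed widely in CpG content. The sequences run from 250 bases before to 50 bases after the annotated 5′ end in mm9, and capitals mark CpG dinucleotides, the sites of DNA methylation. They are given for the domain with the lowest call rate (Snrpn, chr7:67285056-67285355, minus strand), the one with the highest (Dlk1-Meg3, chr12:110778961-110779260, plus strand) and the promoter richest in CpG (Igf2r, chr17:12962481-12962780, minus strand).
Snrpn: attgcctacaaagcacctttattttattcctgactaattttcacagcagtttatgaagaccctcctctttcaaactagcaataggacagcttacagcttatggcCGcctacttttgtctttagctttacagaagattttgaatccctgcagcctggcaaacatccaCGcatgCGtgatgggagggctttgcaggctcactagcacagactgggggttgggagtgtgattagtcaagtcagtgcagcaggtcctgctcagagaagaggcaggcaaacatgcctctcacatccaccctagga
Meg3: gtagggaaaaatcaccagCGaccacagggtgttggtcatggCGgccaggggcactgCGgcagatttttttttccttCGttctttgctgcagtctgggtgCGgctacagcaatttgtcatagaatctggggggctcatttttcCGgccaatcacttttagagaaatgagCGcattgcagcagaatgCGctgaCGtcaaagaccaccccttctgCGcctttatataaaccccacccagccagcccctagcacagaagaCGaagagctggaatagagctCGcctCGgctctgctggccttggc
Igf2r: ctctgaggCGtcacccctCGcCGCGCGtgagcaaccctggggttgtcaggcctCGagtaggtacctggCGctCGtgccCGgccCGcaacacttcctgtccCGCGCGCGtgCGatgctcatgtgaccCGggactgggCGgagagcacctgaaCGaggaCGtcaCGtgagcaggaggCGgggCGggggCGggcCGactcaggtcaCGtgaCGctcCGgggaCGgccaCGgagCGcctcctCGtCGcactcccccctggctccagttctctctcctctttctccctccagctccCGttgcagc
The 5′ end of Igf2r held 33 CpG, a number that 7.02% of the 37247 annotated gene 5′ ends reach. Those are of every gene type in the annotation, not of protein-coding genes alone. Meg3 held 13 (32.9% of gene 5′ ends hold as many) and the annotated 5′ end of Snrpn held 3 (71.6%). Among the other domain genes Plagl1 held 19, Gnas 16, Mest 4 and Igf2 2, against a median of 6 over all gene 5′ ends. Each is the outermost 5′ end of its gene record. Promoters further inside a gene were not counted, so a low count does not describe every promoter of a gene. CpG was searched on the strand given, and its reverse complement is the same letters. The calls carry no methylation, so these counts describe the sequence only.

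The 334 usable windows were called in a mean of 5.05% of the 4NP libraries, and the other 19741 usable windows of the same 6 chromosomes in 4.76%. The difference was 0.28 percentage points with an SE of 0.26 over libraries, about the size of its error. The median window of both sets was called in 9 libraries. The libraries differed far more than the windows: the number of the 338 windows called in a library ran from 0 to 123 with a median of 7, and 49 libraries called none. The share of all windows called ran from 0.00152% to 26.8% per library, with a median of 2.47%. Calls carry no read depth, so the depth of each library is unknown.

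The domains did not behave alike. Snrpn was called least, in 2.60% of libraries per window against 4.54% for the rest of chromosome 7, and Dlk1-Meg3 most, in 6.84% against 5.02% for the rest of chromosome 12. Between these lay H19-Igf2-Kcnq1 (5.53% against 4.50%), Mest (5.40% against 4.41%), Igf2r (5.40% against 4.84%), Plagl1 (5.05% against 4.75%) and Gnas (4.60% against 5.04%). A two-sided sign-flip permutation test over the 4NP libraries was run on the 7 domains and on 1199 blocks of 50 windows that tile chromosomes 1 to 19, with Benjamini-Hochberg adjustment over all of them. Of the domains only Snrpn passed, with a difference of -1.94 percentage points (SE 0.42, permutation p = 1e-05, the smallest that 100000 resamples can give, adjusted p = 0.000709). Most libraries called no window of a given domain, so libraries below the chromosome outnumbered those above it in every domain, with 143 and 25 in Snrpn and 112 and 60 in Mest. Of the blocks, 2.75% were called less often than their chromosome by this test and 0.751% more often, so 1 domain of 7 called less and 0 of 7 called more stand beside these shares. Dlk1-Meg3 was 1.82 points above its chromosome (SE 0.77), with a permutation p of 0.0189 before and 0.202 after adjustment.

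**Figure D1:**
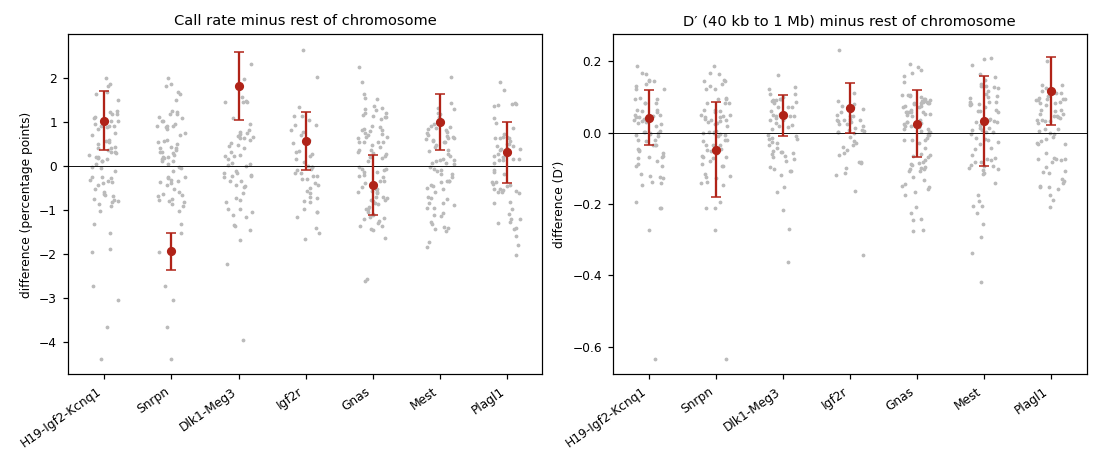
Left, percent of libraries calling a window of each domain minus that of the rest of its chromosome, in percentage points; right, mean D′ of window pairs 40 kb to 1 Mb apart in the domain minus that of the rest of the chromosome. Red points are domains with standard errors over the 4NP libraries and grey points are the blocks of 50 windows of the same chromosome. Snrpn, at -1.94 points on the left, lies below 0 by more than its error, while on the right every domain is within 2 standard errors of 0.

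Within their own chromosomes the domains took different places. Snrpn had a lower difference than all but 5 of the 72 blocks of chromosome 7. Dlk1-Meg3 exceeded 57 of the 59 blocks of chromosome 12, and Mest 66 of the 73 blocks of chromosome 6. H19-Igf2-Kcnq1 exceeded 60 of 72, Igf2r 34 of 46, Plagl1 39 of 64 and Gnas 33 of 89. The remaining domains other than Snrpn and Dlk1-Meg3 thus differed from their chromosomes by 1.03 points or less in either direction, with SEs of 0.64 to 0.69, and none of these differences passed the test (adjusted p 0.440 to 0.856).

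GC content and sequence uniqueness also differed between the domains. The mean GC content was 39.0% in Snrpn against 43.1% on the rest of chromosome 7, and 46.6% in Dlk1-Meg3 against 41.7% on the rest of chromosome 12. H19-Igf2-Kcnq1 had the highest GC content of the domains at 47.6%, and Plagl1 had 41.9% against 41.4% on its chromosome. Gnas had 45.4% against 42.05%, and Igf2r 45.9% against 42.6%. Across the 1199 blocks the correlation of GC content with the call rate difference was 0.50 (Pearson), given as a description over blocks that share the same libraries. Uniqueness was measured as the share of 100 evenly spaced 32-base words of a window that occur once in mm9. Its mean was 58.4% in Snrpn, 73.0% in Igf2r and 77.1% in Gnas, and 88.8% to 92.5% in the other domains, while the chromosomes ran from 78.3% to 86.1%. The part of either in the call rates was tested only by the alternatives that follow.

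With a reference of windows of matching GC content the Snrpn difference was -1.49 points (adjusted permutation p = 0.0286, beside 1.92% of blocks called less often), and that of Dlk1-Meg3 1.43 points (adjusted p = 0.507). When windows with under 50% unique words were left out, in domains, blocks and references alike, the Snrpn difference was -1.63 points with an SE of 0.50 and no longer passed (adjusted permutation p = 0.0666). In that setting 7 of 1165 blocks were called less often than their chromosome. This last alternative was chosen after the data were seen. Leaving out any single library kept the Snrpn difference between -2.09 and -1.84 points and that of Dlk1-Meg3 between 1.51 and 1.95. The Plagl1 difference, 0.31, rested on 1 library: without replicate 2 of the unstained libraries of the crystal violet test it was -0.04. That of Igf2r, 0.56, was 0.25 without replicate 5 at 3 ul of the proteinase K titration, and that of Gnas ran from -0.69 without replicate 7 at 3 ul to -0.25 without replicate 7 of the PI-stained libraries.

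**Figure D2:**
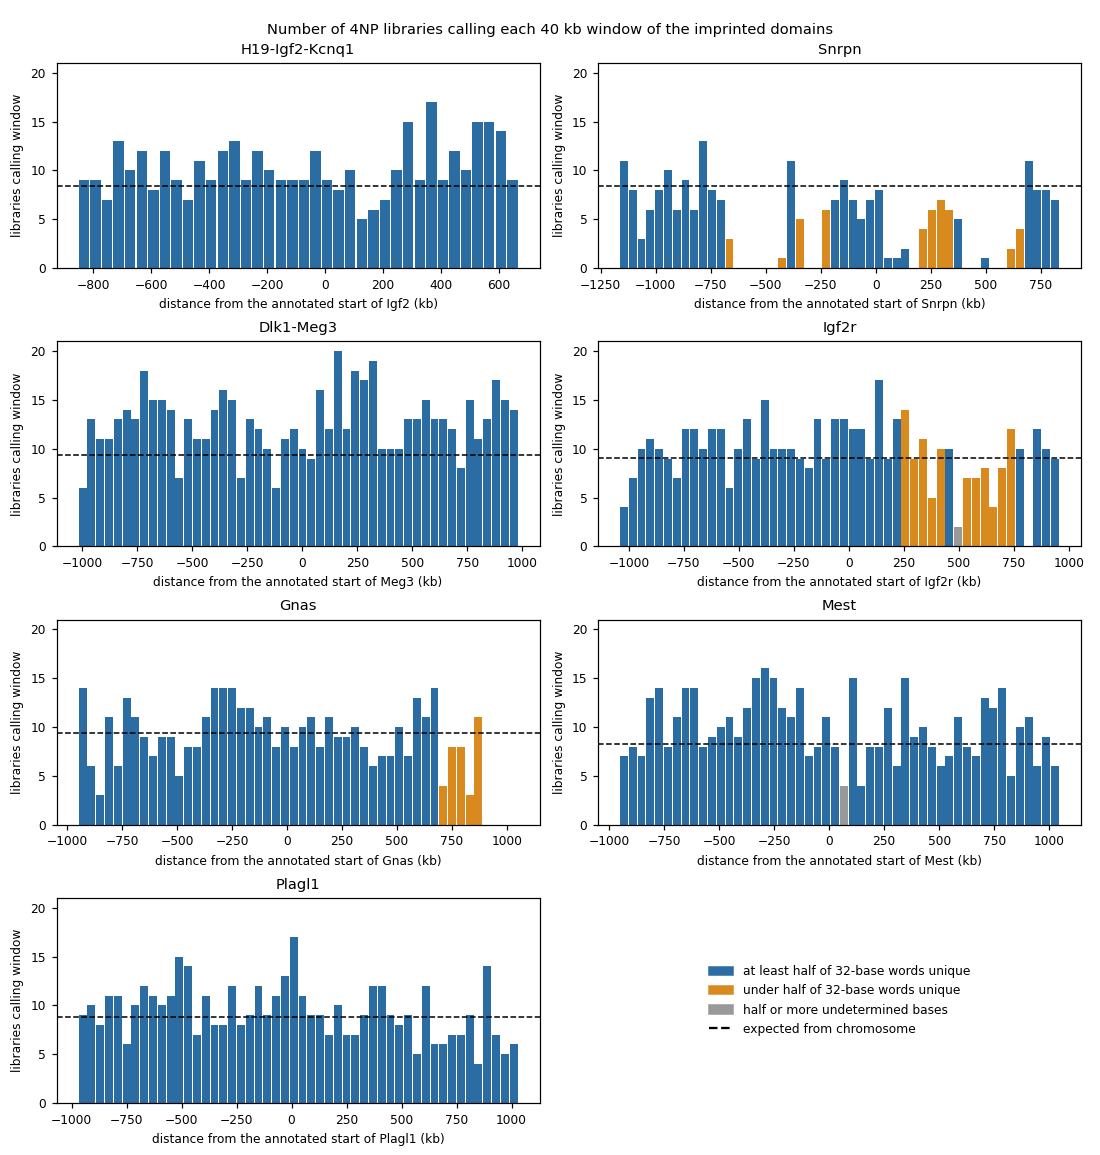
Number of 4NP libraries that called each 40 kb window, by distance in kb from the annotated start of the gene each domain is centred on. Blue bars are windows with at least 50% of 32-base words unique, orange bars windows with fewer, grey bars windows with 50% or more undetermined bases, and the dashed line is the number expected from the chromosome; windows without a bar were never called. The gaps fall in Snrpn and at the distal end of Gnas, with 1 more in Igf2r where the sequence is undetermined, and the highest bars, up to 20 libraries, stand in Dlk1-Meg3.

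The windows of the Snrpn domain were called in 0 to 13 libraries with a median of 6 among the usable ones, against 8.40 expected from chromosome 7, and 7 of 49 were above that number (14.3%, against 49.1% of the windows of chromosome 7 outside the domains). The low windows were not spread evenly. The 8 windows of the SNORD115 array were called in a median of 0 libraries (0 to 7), 5 of them never, and their unique words had a median of 19.5%. The 3 windows of the SNORD116 array were called in 0, 5 and 6 libraries. The 8 windows that overlap Ube3a, a ubiquitin ligase expressed from the maternal copy in neurons, or Snrpn, a component of the spliceosome, were called in 5 to 13 libraries with a median of 7.5. Of these the window of the Ube3a start was called in 13, the most in the domain, and the window of the Snrpn start in 8. Neither passed the test of single windows described below (adjusted p = 0.825 and 1).

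A further run of low windows lay beyond the annotated start of Snrpn, from chr7:67320001 on. Its 20 windows had a median of 3 libraries (0 to 11) and 5 were never called. Apart from 1 with Gm10297, the 20 hold no annotated gene. They had a mean GC content of 37.8% and a median of 58.5% unique words, so they were less repetitive than the arrays by this measure. The window at the proximal end of the SNORD115 array also overlaps Ube3a and counts in both sets. The remaining 11 windows of the domain, outside the arrays, the genes and this run, were called in a median of 8 libraries (3 to 11). Calls were thus near the chromosome's level around Ube3a and Snrpn and low in the arrays and in the gene-free run.

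A test of single windows asked which were called more or less often than their chromosome, given each library's own share of called windows (exact Poisson-binomial test, two-sided, Benjamini-Hochberg over 63918 windows). Of the 334 member windows 15 passed as called less often, 4.49%, against 0.795% of all windows tested. They were 11 windows of Snrpn (adjusted p = 0.0235) and 4 of Gnas (adjusted p = 0.0161), all called in 0 libraries, which is also the lowest number there is. The 11 Snrpn windows were tied, so all are given: 5 in a row in the SNORD115 array (chr7:66640001-66840000), 1 in the SNORD116 array (chr7:67000001-67040000) and 5 in the gene-free run between 67440001 and 67880000. No member window passed as called more often, against 0.277% of all windows. Before adjustment 20 member windows (5.99%) had p below 0.05 in that direction, against 3.86% of all windows. Of the 11 Snrpn windows called in no 4NP library 5 were called in at least 1 water control, and of the 4 Gnas windows 0. Outside the domains 38552 of 63584 usable windows were called in no water control, and all others in at least 1. Among the 15 windows never called in 4NP libraries the median share of unique words was 9%, with a range of 0% to 62%. Among the 319 called at least once it was 93%.

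Low uniqueness went with missing calls over the whole genome as well. Of all 2935 usable windows with under 50% unique words, 22.6% were never called, and of the 60983 others 0.0902% were. Among member windows the numbers were 11 of 37 (29.7%) and 4 of 297 (1.35%). The 4 were all in the gene-free run of Snrpn, with 51% to 62% unique words. When only windows with at least 50% unique words were tested, 0 of 297 member windows and 22 of 60983 windows in all were called less often. The 4 windows of the gene-free run were still called in 0 libraries there, which gave an adjusted p of 0.0648, so that no count on chromosome 7 could pass as low in this setting. With all usable windows tested, a window of the Snrpn domain called in 1 library, where 8.40 are expected, had an adjusted p of 0.148, so deficits short of a complete absence were not detectable in single windows.

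In the Gnas domain 9 windows at the distal end (chr2:174800001-175160000) had 0% to 38% unique words and a median of 3 calling libraries, and the last 4 were never called. Those 4 windows overlap predicted genes named Gm14443, Gm14391, Gm14442, Gm14438, Gm14440, Gm14298 and Gm4631. The other 41 windows had a median of 10 libraries. The window of the start of Gnas, which encodes the alpha subunit of the stimulatory G protein, was called in 10 libraries and that of its antisense transcript Nespas in 8, against 9.36 expected. Without windows of low uniqueness the Gnas difference was 0.05 points in place of -0.44, neither beyond its error. Neither gene window passed the test.

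The Igf2r domain held 11 windows of low uniqueness (6% to 44%) distal of the gene, in a stretch with Tcp10b, Unc93a and Tcte2. They were called in a median of 8 libraries (4 to 14), and none was missing in every library. Its other 37 windows had a median of 10. The windows of the starts of Igf2r, the receptor that clears Igf2, and of Airn, the noncoding RNA antisense to it, were called in 12 and 13 libraries against 9.03 expected. Those of the organic cation transporters Slc22a2 and Slc22a3 were called in 8 and 10. The window called most, in 17 libraries (chr17:13080001-13120000), overlaps Pnldc1, Mrpl18, Tcp1 and Acat3 (adjusted p = 0.368).

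In Dlk1-Meg3, whose difference did not pass the test, 44 of 50 windows (88%) were above the 9.39 libraries expected, against 47.5% on the rest of chromosome 12, none had low uniqueness, and the range was 6 to 20. Neighbouring windows are often called by the same libraries and are not independent. No single window passed the test. The highest, in 20 libraries, lies 161 kb distal of the Meg3 start (chr12:110920001-110960000, adjusted p = 0.0917). It holds no protein-coding gene but part of the microRNA cluster, with Mir379, Mir411, Mir495 and Mir543 among others. It passed when windows of undetermined sequence were kept (adjusted p = 0.0203). The lowest, with 6, were the first window of the domain, over Eml1 and Evl, and a window without an annotated gene proximal of Dlk1 (chr12:110640001-110680000). The start windows of the listed genes were called in 8 to 16 libraries. The window of Dlk1, a transmembrane protein related to Notch ligands, was called in 11 libraries, that of Meg3 in 10, that of the retrotransposon-derived Rtl1 in 9 and that of Dio3, which inactivates thyroid hormone, in 8. The windows of Rian and Mirg, noncoding hosts of small RNAs, were called in 16 and 12.

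In H19-Igf2-Kcnq1 31 of 38 windows (81.6%) were above the 8.40 libraries expected, with a range of 5 to 17, against 49.1% on the rest of chromosome 7. H19 and Igf2, the noncoding RNA and the fetal growth factor that share enhancers, had 9 libraries each at their starts, and Ins2, an insulin gene, had 8. Toward the Kcnq1 end the numbers were mixed: 15 at Ascl2, a transcription factor of the trophoblast, 9 at Tspan32, 17 at Cd81, a tetraspanin, 9 at Tssc4 and 12 at the potassium channel Kcnq1. None of these windows passed the test. The window with most calls was that of Cd81 (adjusted p = 0.258) and the one with fewest, 5, lay between Ins2 and Th with no protein-coding gene. Th, tyrosine hydroxylase, had 10.

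In the Mest domain 29 of 49 windows (59.2%) were above expectation, against 42.8% on the rest of chromosome 6, and in Plagl1 31 of 50 (62%), against 51.4% on the rest of chromosome 10. The window of the start of Mest, a member of the alpha/beta hydrolase fold family, was called in 11 libraries, and those of Copg2, Klf14 and Cpa4 in 8, 8 and 11, against 8.22 expected. The lowest window of that domain, with 4 calls (chr6:30800001-30840000), lies inside Copg2, as does a window left out for 82.0% undetermined bases. The highest, with 16, overlaps Klhdc10. In Plagl1 the window of the gene itself, a zinc finger transcription factor, had the most calls of its domain, 17 against 8.84 expected, but did not pass the test (adjusted p = 0.339). The fewest, 4, were in a window 850 kb distal of it without a protein-coding gene.

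Over all domains the 29 listed genes had start windows called in 8 to 17 libraries with a median of 10. Of these 20 were above expectation, as were 57.8% of all member windows and 48.2% of all usable windows, and none passed the test, with a lowest adjusted p of 0.258. Taking whole genes, the 55 usable windows that overlap a listed gene were called in a median of 10 libraries and the other 279 in 9. The order by median was not the same everywhere: 14 against 9 in Plagl1 (2 windows) and 7.5 against 4 in Snrpn, but 11 against 13 in Dlk1-Meg3.

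Whole domains were rarely caught at once. A library called at least 1 window of Mest in 78 cases, of Dlk1-Meg3 in 73, of Gnas in 70, of Igf2r in 67, of H19-Igf2-Kcnq1 in 61, of Plagl1 in 59 and of Snrpn in 52. The medians over the blocks of their chromosomes ran from 62 to 68. At least 50% of the windows were called in 6 libraries for Plagl1, 5 for Dlk1-Meg3, 4 for Mest, 3 for Igf2r, 3 for H19-Igf2-Kcnq1, 2 for Gnas and 0 for Snrpn, where the blocks had medians of 2 or 3. The most complete capture was that of Plagl1 in replicate 2 of the unstained libraries of the crystal violet test, with 40 of 50 windows. The 5 libraries with most calls held 35.3% of all calls of Plagl1 and 35.4% of those of Snrpn, but 23.9% of those of Dlk1-Meg3. Where a domain was called at all, the median number of windows was 6 in Dlk1-Meg3, 2 in Snrpn and 3 or 4 elsewhere.

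Co-segregation was measured as D′, the linkage disequilibrium between calls scaled to its possible range, which is 1 when the rarer window of a pair is called only together with the other and 0 when calls are independent. Windows called in at least 2 libraries entered. For pairs 40 kb to 1 Mb apart the mean D′ was 0.39 in Plagl1, 0.35 in Igf2r, 0.34 in Dlk1-Meg3, 0.30 in H19-Igf2-Kcnq1, 0.28 in Gnas, 0.25 in Mest and 0.21 in Snrpn. At the same distances on the rest of their chromosomes it was 0.22 to 0.29. The differences ran from -0.05 (Snrpn, jackknife SE 0.13) to 0.12 (Plagl1, SE 0.09), and none of the 7 was beyond 2 SE. Among 1198 blocks 4.17% were more than 2 SE above and 3.09% more than 2 SE below, and 0 of 7 domains stands beside these shares. Plagl1 exceeded 59 of the 64 blocks of chromosome 10. Across the 1198 blocks the correlation of the D′ difference with the call rate difference was 0.61 (Pearson), given as a description. The part of the call rates in the D′ of the domains was not tested.

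**Figure D3:**
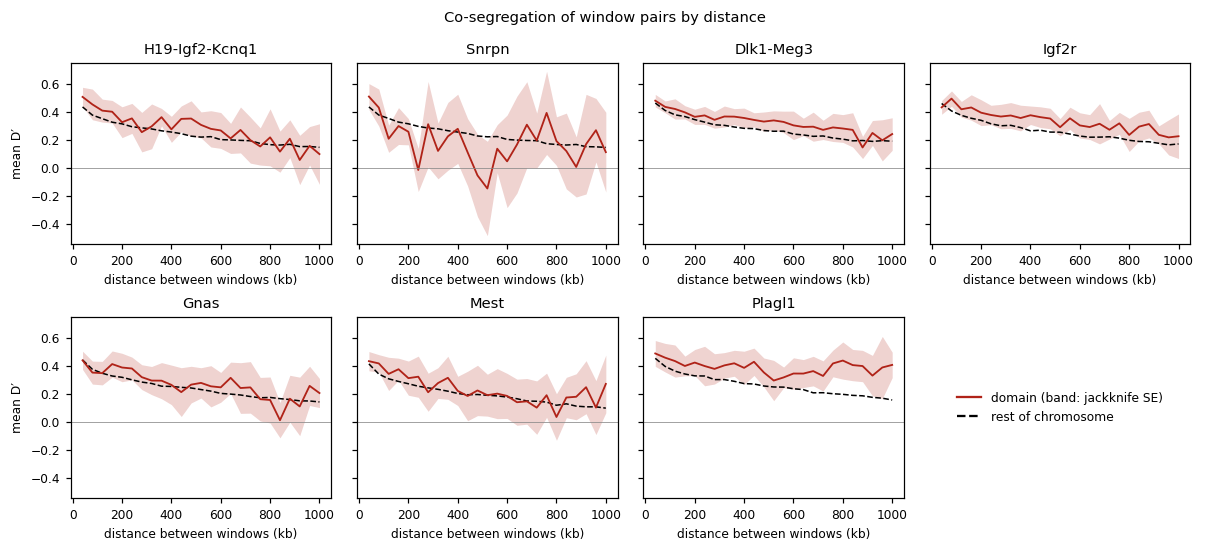
Mean D′ of window pairs by the distance between them in kb, for each domain (red, band of 1 jackknife standard error over libraries) and the rest of its chromosome (dashed). In most domains the curve falls along the chromosome's, from 0.43 to 0.51 at 40 kb; in Plagl1 it ran between 0.30 and 0.49, and Snrpn has the widest band.

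D′ was lower at 1 Mb than in adjacent windows in every domain and on every chromosome, but the fall was not even: in Plagl1 it was 0.44 at 800 kb, and in Mest 0.04 at 800 kb and 0.27 at 1 Mb. In adjacent windows it was 0.51 in both H19-Igf2-Kcnq1 and Snrpn, 0.49 in Plagl1, 0.48 in Dlk1-Meg3, 0.44 in Gnas and 0.43 in Mest and Igf2r. At 1 Mb it was 0.10 in H19-Igf2-Kcnq1 and 0.11 in Snrpn, near the 0.15 of chromosome 7. In Plagl1 it was 0.41 (SE 0.09) at 1 Mb, where the rest of chromosome 10 had 0.16, a difference of 0.25 (SE 0.09, 25 window pairs). Of 175 values of a domain at a distance 2 were more than 2 SE above the chromosome, both in Plagl1 (760 kb and 1 Mb), and 1 was more than 2 SE below (Snrpn at 240 kb, 15 pairs). In 139 of the 175 the domain's value was the higher one, but values at neighbouring distances share windows and libraries.

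**Figure D4:**
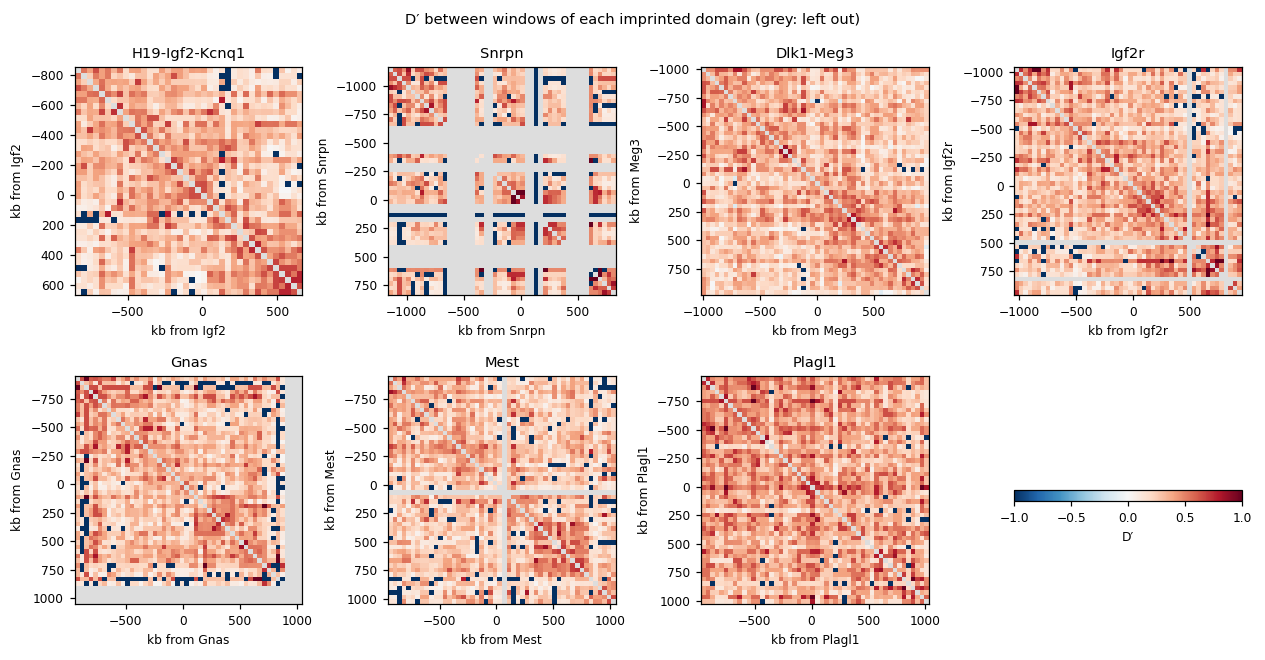
D′ between all pairs of windows inside each domain, with both axes in kb from the annotated start of the central gene, from -1 (blue) to 1 (red); grey cells are the diagonal and windows left out or called in fewer than 2 libraries. Positive values fill the maps at all distances in Plagl1, whose mean at 1 Mb was 0.41, while Snrpn shows broad grey bands and single windows with few calls appear as blue lines.

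Between named genes the values were as follows. The distances given are those between the windows that hold the gene starts. H19 and Igf2, with windows 80 kb apart, each called in 9 libraries, were called together in 6, which gave a D′ of 0.65 (SE 0.24) where chromosome 7 had a mean of 0.38 at that distance. Of the pairs of chromosome 7 at 80 kb 10.7% had a D′ as high. Igf2r and Slc22a3, 280 kb apart, were called together in 6 libraries (D′ 0.57, SE 0.18, against a mean of 0.30, reached by 12.6% of pairs).

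Dlk1 and Meg3, also 80 kb apart, had only 3 libraries in common out of 11 and 10 (D′ 0.26, SE 0.16, against 0.41), and 82.8% of the pairs of chromosome 12 were as high. Mest with Copg2 (200 kb) and with Klf14 (240 kb) had 4 libraries in common and a D′ of 0.47 (SE 0.21) in both cases. Igf2 with Kcnq1 (440 kb), H19 with Cd81 (440 kb), Snrpn with Ube3a (800 kb) and Dlk1 with Dio3 (800 kb) had D′ of 0.17 to 0.27, with SEs of 0.16 to 0.19. With 2 to 6 shared libraries, none of the 9 gene pairs stood more than 2 SE from the mean of its chromosome.

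A profile of contacts across each boundary between windows was taken as the mean D′ between the 10 windows on either side, a square of 400 kb. Lower values mark places that contacts cross less. The chromosomes' means were 0.22 to 0.29, with SDs of 0.12 to 0.17 over boundaries. The lowest boundary of any domain was in Snrpn, at the edge of the rarely called run. There the boundaries 74.9 and 114.9 kb beyond the annotated start of the gene both had -0.04 (SE 0.21). Of the boundaries of chromosome 7, 2.12% undercut this value. The part of the few calls there in the low value was not tested. Snrpn had 35 boundaries with a score, H19-Igf2-Kcnq1 37, Gnas 41 and each other domain 49. In H19-Igf2-Kcnq1 the lowest value, 0.22 (SE 0.13), lay 107 kb distal of the Igf2 start, between Ins2 and Th, and the highest, 0.40 (SE 0.12), lay inside Kcnq1. In Plagl1 the highest value was 0.52 (SE 0.10), far proximal of the gene at position 12040000, above 99.2% of boundaries of chromosome 10. The minima of Dlk1-Meg3 (0.28), Igf2r (0.27) and Plagl1 (0.27) were close to their chromosomes' means. The extremes of the domains other than Snrpn had SEs of 0.08 to 0.25, so rises and dips within a domain were mostly of the size of their error.

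Pairs of different domains were compared with a reference, the mean of all pairs of the same chromosomes. For H19-Igf2-Kcnq1 with Snrpn, both on chromosome 7, the reference took only pairs in the same range of distances. These reference means are below 0 (-0.37 to -0.19), and a pair of windows that share no library has a D′ of -1. Of 21 pairs 17 lay above their reference. Among the 17, 2 were more than 2 SE above: H19-Igf2-Kcnq1 with Dlk1-Meg3 (difference 0.30, SE 0.13) and with Mest (0.28, SE 0.14). Snrpn with Igf2r lay 0.22 below (SE 0.10), and was alone in being more than 2 SE below. Of block pairs of chromosomes 7 and 12, 1.57% had a D′ as high as the first. Of those of chromosomes 7 and 6, 4.19% were as high as the second. Of those of chromosomes 7 and 17, 91.5% were at least as high as Snrpn with Igf2r. With 21 pairs, the same libraries in all and no test across pairs, these are given as descriptions. The largest difference, 0.35 between H19-Igf2-Kcnq1 and Plagl1, had an SE of 0.23. H19-Igf2-Kcnq1 and Dlk1-Meg3 were both called in 34 libraries.

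The direction of the Snrpn difference was the same in all 6 experiments with at least 15 libraries, though not checked without single libraries. It was -0.40 percentage points in the crystal violet experiment (SD 3.41, n = 21), -1.35 in the full collection (SD 3.66, n = 34), -1.66 in the SYBR Gold test (SD 2.91, n = 18), -2.41 in the PI staining and freezing experiment (SD 6.02, n = 43), -2.74 in the proteinase K titration (SD 8.59, n = 31) and -3.86 in the eosin test (SD 7.14, n = 17). Mest was the only other domain with 1 direction, from 0.45 to 4.08 points above its chromosome in 6 of 6. In the full collection its value was 1.59 points, with 4 of 34 libraries above the chromosome. That value includes replicate 14 at 59.1 points. Whether Mest keeps its direction there without this library was not tested, so the 6 of 6 may rest on it. The other domains lay above their chromosome in 2 to 4 of 6 experiments. Dlk1-Meg3 ranged from -0.85 points in the full collection to 4.50 in the eosin test, so its excess did not hold within every experiment. In the 5 experiments with 3 to 6 libraries the direction was not kept: Mest lay below its chromosome in 3 of them (-4.73 points with early or late freezing, -1.59 with the PCR cycles and -1.04 with the reagent volumes), and Snrpn above it in 1, by 3.40 points in the early freezing test (n = 3).

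**Figure D5:**
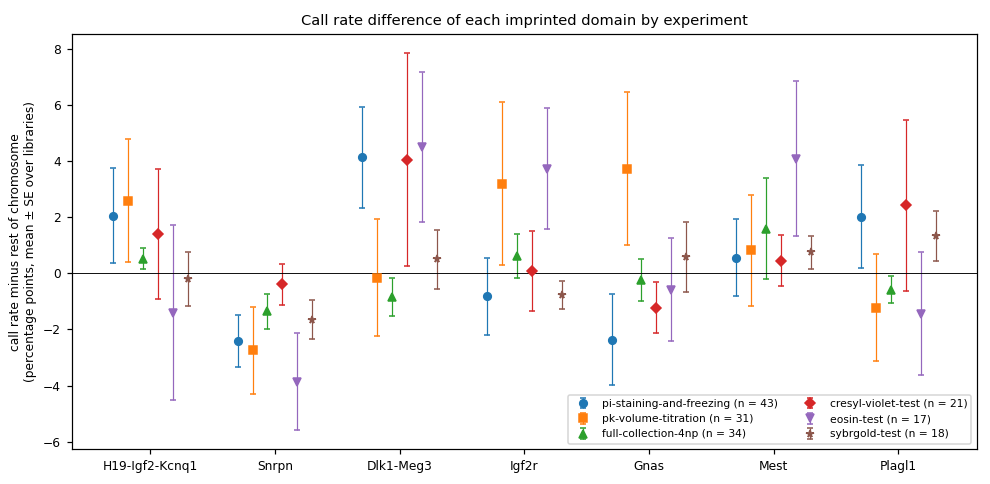
Call rate of each domain minus that of the rest of its chromosome, in percentage points, as the mean with its standard error over the libraries of each experiment with at least 15 4NP libraries. All 6 points of Snrpn lie below 0 and all 6 of Mest above it, while the other domains have points on both sides. These directions were not checked without single libraries, and the Mest point of the full collection includes 1 library at 59.1 points.

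The median library called 0% of the windows of each domain, and the lowest did too. The highest called 73.7% in H19-Igf2-Kcnq1, 48.98% in Snrpn, 70% in Dlk1-Meg3, 72.9% in Igf2r, 62% in Gnas, 69.4% in Mest and 80% in Plagl1. Every domain mean thus rests on a minority of libraries with many calls.

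Treatments were compared within an experiment on the difference between domain and chromosome, with the same test on all blocks. Frozen against unfrozen PI-stained libraries gave no call in the domains, and 0.00% of 1199 blocks passed. Over all member windows the share called had a median of 6.89% in stained libraries (0% to 36.5%) and of 4.19% in stained and frozen ones (0% to 19.8%), so the groups overlapped. The share of windows called in Dlk1-Meg3 was 13.0% ± 15.7 (SD, n = 21) in stained and 8.57% ± 13.99 (n = 21) in stained and frozen libraries, and the difference in excess over the chromosome was 3.60 points (permutation, adjusted p = 0.987). For Gnas it was -4.16 points (permutation, adjusted p = 0.987). The lowest unadjusted p of a domain in this contrast was 0.224, and 52 blocks had an unadjusted p below 0.05.

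Eosin in ethanol against eosin in water also gave no call, with 0.00% of blocks past the test and 51 at an unadjusted p below 0.05. Over all member windows the share called had a median of 10.3% after ethanol (0.30% to 20.96%) and 5.54% after water (1.80% to 22.2%). The largest difference was that of Mest, called in 20.4% ± 18.7 (SD, n = 8) of windows after ethanol and 5.10% ± 9.63 (n = 8) after water. The difference in excess was 8.93 points (exact permutation p = 0.135, adjusted 0.986). The groups overlapped in every domain.

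Crystal violet libraries had few calls anywhere: 0.39% ± 0.43 (SD, n = 16) of the member windows and 0.58% ± 0.16 of the rest of the same chromosomes, against 12.04% ± 14.3 (n = 5) and 7.30% ± 5.80 in unstained libraries. The crystal violet libraries called 0% to 1.198% of the member windows and the unstained ones 2.69% to 36.8%, so these groups did not overlap. Snrpn and Plagl1 had no called window in any of the 16 crystal violet libraries. This put them only -0.48 and -0.49 points from their rarely called chromosomes, and how many blocks also had none was not counted. In the 5 unstained libraries the shares of Snrpn and Plagl1 were 7.76% ± 12.9 and 18.4% ± 34.8. On the difference from the chromosome none of the 7 domains passed. Of the blocks 22.9% were higher in crystal violet by this test and 3.09% lower. The lowest value was -18.1 points in Dlk1-Meg3 (exact permutation p = 0.0451, adjusted 0.103), the only domain with an unadjusted p below 0.05. Its 5 unstained libraries spread widely (SD 34.5 points). Since the libraries of the groups differ in coverage throughout the genome, the difference from the chromosome differs in spread between them, and its part in the share of blocks called was not tested.

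The proteinase K titration gave domain values without a test. Member windows were called in 8.73% ± 2.68 (SD, n = 7) with 1 ul of the proteinase labelled CSC. With that labelled MDC they were called in 10.2% ± 7.05 at 3 ul (n = 7), 12.7% ± 10.1 at 4 ul (n = 7) and 6.20% ± 12.8 at 8 ul (n = 7). The rest of the 6 chromosomes had 8.76%, 9.66%, 11.2% and 5.20% in these groups, in the same order. The small MDC groups had 0% in members and 0.0076% in the rest at 1 ul (n = 2), and 4.49% against 1.98% at 2 ul (n = 1). At 8 ul 1 library of 7 with 35.03% set the mean, and the median was 0.90%.

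In 9 of 11 water controls and both human DNA controls 0 or 1 of the 338 windows was called. A count of 0 has a Wilson 95% interval of up to 1.12%. The other pair of water controls had many calls across the genome and in the domains. Replicate 4 of the full collection called 136 member windows (40.2%, Wilson 95% interval 35.1% to 45.5%, counting error only) and 24.5% of the rest of the same chromosomes. It called 40 of 50 windows of Dlk1-Meg3 and 26 of 38 of H19-Igf2-Kcnq1 but 0 of 50 of Plagl1. In the SYBR Gold test the water control without stain called 99 (29.3%, interval 24.7% to 34.4%) and 23.4% of the rest of the same chromosomes. It called 34 of 50 windows of Plagl1 and 2 of 50 of Dlk1-Meg3. Both called many windows of Snrpn (26 and 30 of 50), and similar numbers in Igf2r (18 and 14) and Gnas (13 and 12), while Mest had 13 and 2. Of the usable windows 12 of 49 in Snrpn and 8 of 50 in Dlk1-Meg3 were called in no water control. The numbers were 11 of 38 in H19-Igf2-Kcnq1, 16 of 50 in Plagl1 and 20 of 48 in Igf2r. In Gnas they were 30 of 50 and in Mest 33 of 49, and outside the domains 38552 of 63584.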

How the data were processed

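Calls of 40 kb windows were those the authors deposited, 1 for a positive window and 0 otherwise, in a table of 68162 rows and 199 libraries. According to the methods, reads were aligned to mm9 with Bowtie2 (2.1 in the submitters' processing notes), duplicates were removed with Samtools, and GAMtools called windows at a fixed threshold of 4 reads. How reads that align to several places were treated is not given in the sources used here. Groups followed the sample titles, also in the SYBR Gold test, where titles and protocols disagree.

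From the calls were computed: the percent of windows called per library in a domain and in the rest of its chromosome, with windows of 50% or more undetermined bases left out and blocks of 50 windows with at least 25 usable; a two-sided sign-flip permutation test over libraries (100000 resamples); an exact Poisson-binomial test per window; D′ with jackknife SEs; and permutation tests of contrasts, exact up to 5000000 splits. Benjamini-Hochberg adjustment ran over all blocks and domains or all windows, with 0.05 as the threshold. For pairs of chromosomes, the reference took 1 window in 5. Named windows were the most and least called of each domain, those of the listed genes' starts, and those past the single-window test. Uniqueness used 100 words of 32 bases per window. Scripts ran in Python 3 with numpy and scipy and were tested on simulated data. The domains, gene lists and tests were chosen with earlier results of these data known. Sequences were read from mm9 and GENCODE M1.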

Additional observations from a re-analysis of the deposited data

Results flagged for a closer look

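In 4 of the 8 groups of 4 to 10 libraries, 1 library stood apart from the others in the share of the member windows called, by Dixon's test of its gap over the range. For normally distributed values chance marks about 1 group in 20 in this way, and how often it does so for values as skewed as these was not tested. In the proteinase K titration, replicate 3 at 8 ul called 35.03% of member windows, where the next library of the 7 called 3.89% and the median was 0.90%. Among the 6 water controls of the full collection, replicate 4 called 40.7% of the usable member windows, and the next called 0.30%. Among the 5 unstained libraries of the crystal violet test, replicate 2 called 36.8%, the next 11.7%. Among the 8 libraries with eosin in water, replicate 3 called 22.2%, the next 6.29%.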

How the results depend on the processing

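Of the call rate differences, Snrpn kept its direction under every alternative run, from -3.00 points in libraries with at least 1% of windows called to -1.49 with the GC-matched reference, and passed the test in all but the setting with at least 50% unique words (-1.63). Gnas turned from -0.44 to 0.19 in the inner part of the domain (25 kept of 50 windows) and to 0.0496 with unique windows, without passing. The other 5 domains passed in no setting and kept their direction, except Plagl1, which was -0.04 without 1 library. Their sizes moved, from 0.45 (GC-matched) to 1.72 in H19-Igf2-Kcnq1, 1.43 (GC-matched) to 3.00 in Dlk1-Meg3, 0.19 (GC-matched) to 0.99 in Igf2r, 0.47 (against all autosomes) to 1.501 in Mest and 0.13 (against all autosomes) to 0.91 in Plagl1, which had its highest value with windows called in no water control. The other highest values were in libraries with at least 1% of windows called. Of the D′ differences between domain and chromosome, none passed 2 SE in any setting, but 3 changed direction: Snrpn to 0.0445 and Mest to -0.0123 with windows called in at least 5 libraries, and H19-Igf2-Kcnq1 to -0.0658 with windows called in no water control. Snrpn had too few pairs for that last setting. With at least 5 calls the pair of H19-Igf2-Kcnq1 and Mest was no longer more than 2 SE above (0.23, SE 0.14), which left 1 pair there in place of 2.

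Blocks called more and less often numbered 9 and 33. They were 14 and 77 with all windows, 3 and 33 against all autosomes, 7 and 23 with the GC-matched reference, 10 and 36 beside the inner part of the domains, 5 and 29 in libraries with at least 1% of windows called, 2 and 21 of 762 with windows called in no water control, and 1 and 7 of 1165 with unique windows.

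Member windows called more often numbered 1 when all 338 windows were tested, and those called less often 0 of 297 with unique windows, where 4 Snrpn windows with 0 calls had an adjusted p of 0.0648 and could not pass. Over all windows the counts of more and less often called were 177 and 508, against 401 and 2537 with all windows and 62 and 22 with unique ones.

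In the contrasts, the share of windows called, not minus the chromosome, gave 1 domain past the test for crystal violet (Snrpn, -7.76 points, beside 2.67% of blocks lower and 0% higher), reversed Gnas (-1.63) and Mest (-6.07) there, H19-Igf2-Kcnq1 (0.13) for PI, and H19-Igf2-Kcnq1 (2.63), Snrpn (2.04) and Plagl1 (1.75) for eosin. Leaving out each unstained replicate in turn gave 0 to 1 domains past the crystal violet test. The values then ran from -12.0 to 2.56 for H19-Igf2-Kcnq1, -3.47 to 1.66 for Snrpn, -27.3 to -7.95 for Dlk1-Meg3, -4.65 to 5.25 for Igf2r, 0.36 to 5.59 for Gnas, -1.65 to 4.11 for Mest and -15.8 to 0.70 for Plagl1. Igf2r passed as higher without replicate 1, where 24.9% of blocks were higher and 4.92% lower, and Snrpn passed as lower without replicate 3, where the shares were 21.8% and 2.84%. The causes were not tested.

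No paired analysis was possible because the replicate numbers only follow the order of the samples and mark no shared culture or day. The sign-flip test assumes differences symmetric about 0, while those of single libraries were skewed, with many small negative and few large positive values. A library with few calls adds little, and at a median coverage of 2.47% most windows rest on about 9 calls.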
